A study of Homo sapiens with 12 samples.

Results

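The BCL2 family decides at the mitochondrial outer membrane whether a stressed cell dies by apoptosis, and 10 of its genes were followed here by symbol through every group of the series: BAX, BAK1, BCL2L1, MCL1, BBC3, PMAIP1, HRK, BID, BCL2L11 and BIK. They are 10 of the 58735 genes in the deposited table, and all 10 were among the 17094 genes with enough counts to be tested. Poly(A) RNA came from A549, an established human line of non-small cell lung cancer, and each of the 4 groups holds 3 libraries. The shTRIM22 irradiated cells stably carried a short hairpin RNA against TRIM22, a RING-type ubiquitin ligase gene, and were taken 3 days after ionizing radiation, and the shTRIM22 sham cells carried the same hairpin and were sham-irradiated. The shControl irradiated cells carried a control hairpin and were taken 3 days after radiation, and the shControl sham cells carried it without radiation. Each hairpin is represented by a single stable population, and loss of TRIM22 and any other difference between both populations cannot be told apart. "Knockdown" below means the shTRIM22 population relative to the shControl population. The dose given and the collection time of sham cells are not stated, nor is it stated that replicates were separate cultures, so the p-values reflect only how far these libraries scatter.

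In outline, the effectors BAX and BAK form the pores that release cytochrome c, the anti-apoptotic proteins BCL-XL (gene BCL2L1) and MCL1 hold them in check, and the BH3-only proteins PUMA (BBC3), NOXA (PMAIP1), HRK, BID, BIM (BCL2L11) and BIK bind the anti-apoptotic proteins or activate the effectors. NOXA binds MCL1 above all, and MCL1 mRNA and protein both turn over quickly. Several of these genes are spliced into isoforms with opposite roles, among them BCL2L1 and MCL1, and counts per gene do not separate the isoforms. All values are mRNA levels, which do not give protein amount or cell death.

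The promoters of BAX and BBC3 are shown because these members passed the test for an irradiation response that differed between the cell populations. For BAX that call was lost in 9 of 18 alternative runs (below). Each is the 250 bases before the RefSeq start site on build GRCh38.p14, 5′ to 3′ on the strand of the gene. BAX lies at chr19:48954625-48954874 on the plus strand and BBC3 at chr19:47232668-47232917 on the minus strand. Capitals mark matches, on either strand, to the E-box CACGTG, the CCAAT box CCAAT, the GC box GGGCGG, the TATA box TATAAA and the E2F site TTTCCCGC.
BAX: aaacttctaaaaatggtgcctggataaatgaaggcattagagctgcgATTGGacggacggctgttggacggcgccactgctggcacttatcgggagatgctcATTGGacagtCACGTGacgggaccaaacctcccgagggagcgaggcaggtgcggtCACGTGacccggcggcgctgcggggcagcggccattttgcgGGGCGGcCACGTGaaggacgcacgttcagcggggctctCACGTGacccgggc
BBC3: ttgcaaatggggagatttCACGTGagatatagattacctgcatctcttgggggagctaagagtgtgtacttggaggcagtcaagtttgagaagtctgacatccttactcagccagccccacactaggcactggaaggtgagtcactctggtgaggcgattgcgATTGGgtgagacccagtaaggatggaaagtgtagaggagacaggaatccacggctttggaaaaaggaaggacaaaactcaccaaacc
The BAX promoter held the E-box 4 times, at positions -138, -93, -45 and -14 from the start site, and the BBC3 promoter held it once, at -232. Among 35116 RefSeq promoter windows of this length 6.34% held that motif. Windows of BID held it too, at -106 and -47, and the interaction of BID missed the threshold (below). The CCAAT box lay in 32.0% of all windows and the GC box in 42.6%. No TATA box or E2F site lay in the BAX or the BBC3 window. The BAX window was 62.8% G and C with 25 CG pairs and the BBC3 window 49.2% with 4, where the median over all windows was 58.0% with 11. Of the 10 members, 8 had a window in the RefSeq table, 13 windows in all. A match in these letters is a description and not a binding site.

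TRIM22 checked the labels. It stood at 2.47, 2.17 and 1.35 CPM (TMM-scaled CPM, the count relative to library size) in shTRIM22 irradiated libraries and at 18.5, 17.8 and 16.6 CPM in shControl irradiated libraries. Without radiation it was 0.326, 0.304 and 0.293 CPM in shTRIM22 and 2.83, 1.76 and 2.25 CPM in shControl libraries. It was lower in every shTRIM22 library than in any shControl library of the same treatment. TRIM22 itself rose with irradiation, 6.35-fold in shTRIM22 and 7.72-fold in shControl cells. Its levels in shTRIM22 irradiated and shControl sham libraries therefore overlapped. In shTRIM22 sham libraries it rested on 5 to 6 counts, against 28 to 45 in shControl sham libraries. Total counts ran from 14468386 to 17872154 per library. The epithelial keratin genes KRT8 and KRT18 were at 2450 to 4630 and 1510 to 3660 CPM. The keratin gene KRT19 was at only 0.122 to 1.3 CPM, EPCAM at 3.11 to 11.8, AGER at 0.79 to 4.56 and CDH1 at 40.7 to 295 CPM. The alveolar surfactant genes SFTPB, SFTPC and SFTPA1 and the lung factor NKX2-1 stayed at or below 0.354 CPM, so these defining genes of alveolar cells were close to absent. The summed level of the 10 lung epithelial markers, nearly all of it keratin, was 6880 to 7430 CPM in shTRIM22 irradiated, 6450 to 8340 in shTRIM22 sham, 5940 to 6370 in shControl irradiated and 4170 to 4480 in shControl sham libraries. Within that list CDH1, the gene of E-cadherin, went the other way with knockdown (-1.98 ± 0.07, edgeR adjusted p = 1.56e-11, after irradiation and -2.28 ± 0.07, adjusted p = 1.17e-12, without it), and AGER was lower without irradiation (-1.33 ± 0.37, adjusted p = 0.00751). Markers of fibroblasts (6 genes) summed to 11.0 to 13.9, 8.92 to 17.2, 8.34 to 8.92 and 6.23 to 8.50 CPM in the same order of groups, those of endothelial cells (5 genes) to 8.69 to 12.1, 4.84 to 5.11, 4.36 to 4.49 and 3.96 to 4.45 CPM, and those of blood cells (6 genes) to 16.9 to 23.5, 10.8 to 17.0, 27.5 to 33.0 and 19.5 to 19.9 CPM. The blood sum was almost all CD14, with CD3E at 0 in every library and PTPRC at or below 0.257 CPM. The part of these shifts in the results below was not tested.

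Replicate 3 of shTRIM22 sham was unlike the others. Genes of the mitochondrial genome took 2.67% of its counts, against 9.12% to 14.4% in all other libraries. Of the 10 members it held the lowest level of its group for BAX, BAK1, BCL2L1, HRK, BID and BCL2L11 and the highest for BBC3, PMAIP1, MCL1 and BIK. Member calls that use its group are also given without it. Of the member comparisons not called that use its group, MCL1 with irradiation was -0.11 with replicate 3 and -0.01 without it. BID with knockdown without irradiation was -0.14 and -0.08, and the interaction of BAK1 -0.14 and -0.24. None of these passed the threshold either way. The interaction of PMAIP1 was -0.57 with replicate 3 and missed the threshold, and it passed without it (-0.42, edgeR adjusted p = 0.0108).

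**Figure D1:**
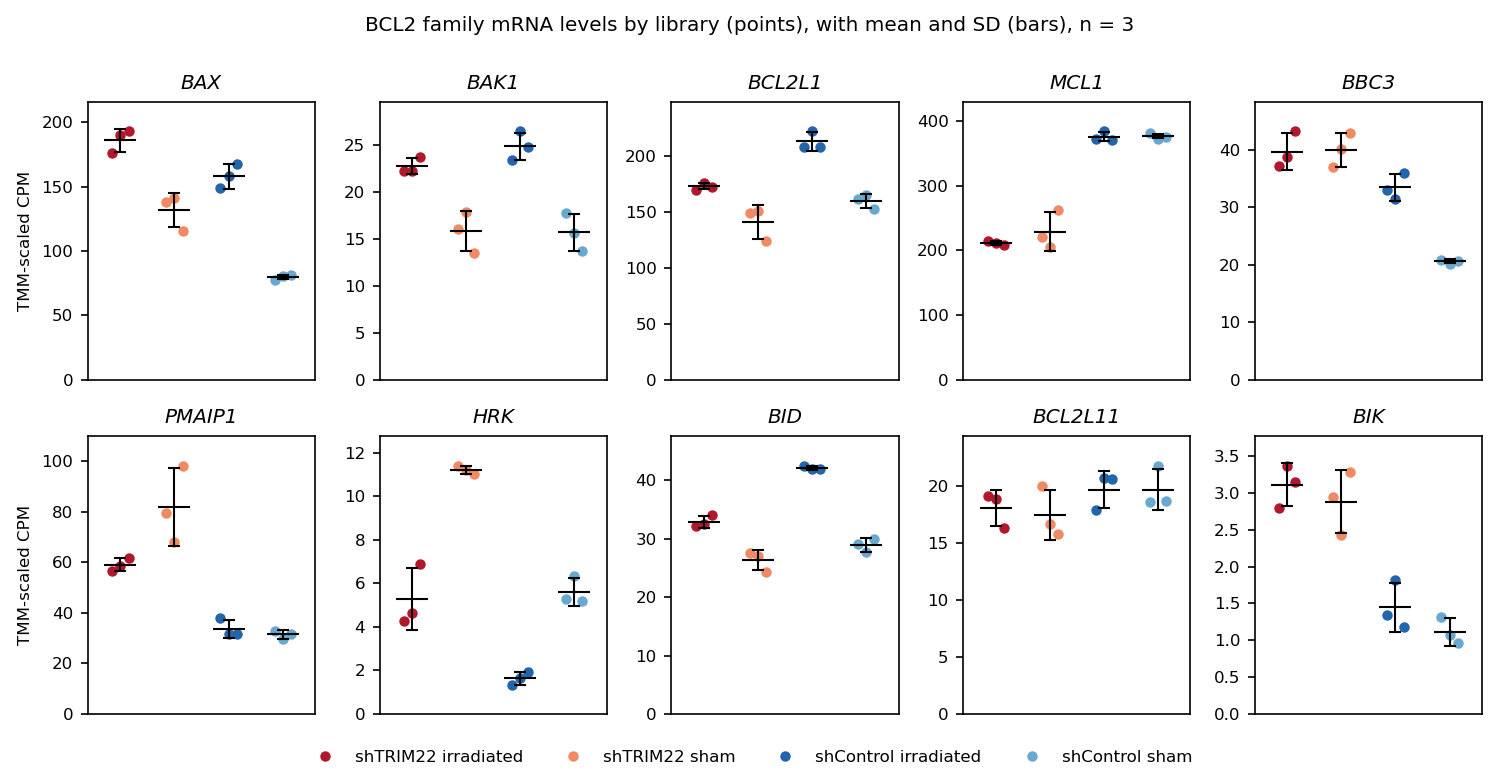
Level of each member (TMM-scaled CPM, linear axis from 0) in the 12 libraries, with points for libraries, long dashes for group means and bars for SD (n = 3 per group). BAX was lowest in shControl sham libraries, MCL1 was lower in all shTRIM22 than in all shControl libraries, and HRK was lowest in shControl irradiated libraries.

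Among the members followed here, MCL1 and BCL2L1 mRNA made up most of the summed level per length in shControl sham cells. BAX mRNA led among these members in shTRIM22 irradiated cells. CPM per kilobase of gene model was used to compare genes. In shTRIM22 irradiated libraries BAX stood at 72.0 ± 3.50 CPM per kb (mean ± SD, n = 3), ahead of BCL2L1 at 52.1 ± 0.877 and MCL1 at 48.5 ± 0.658. In shControl sham libraries MCL1 stood at 86.2 ± 0.821, BCL2L1 at 48.3 ± 1.88 and BAX at 30.9 ± 0.714 CPM per kb. The order of these 3 genes was thus different in the 2 groups, and their ranges did not overlap within either. HRK was the lowest member in all 4 groups, at 0.769 ± 0.206 CPM per kb in shTRIM22 irradiated, 1.64 ± 0.0294 in shTRIM22 sham, 0.239 ± 0.0443 in shControl irradiated and 0.817 ± 0.0932 in shControl sham libraries.

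By role, the 2 effector genes took 34.1% to 35.4% of the summed level per kb of the 10 members in shTRIM22 irradiated libraries, 23.3% to 29.7% in shTRIM22 sham, 26.5% to 28.9% in shControl irradiated and 18.4% to 18.6% in shControl sham libraries. The 2 anti-apoptotic genes took 41.5% to 43.8%, 43.8% to 44.5%, 56.1% to 58.1% and 65.5% to 66.1% in the same order of groups. The 6 BH3-only genes took 22.1% to 23.1%, 26.5% to 32.1%, 14.5% to 16.0% and 15.2% to 15.9%. The share of these 2 anti-apoptotic genes was thus lower in every shTRIM22 library than in any shControl library. Further family genes (below) are outside the shares. Among them the anti-apoptotic gene BCL2L2 was higher with knockdown under both treatments, and BCL2 was higher after irradiation. Of further BH3-only genes BMF was higher with knockdown and BAD lower. The shares are descriptions of mRNA and have no test.

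Irradiation of shTRIM22 cells raised both effectors, BCL2L1 and BID, and lowered HRK and PMAIP1. Of the 10 members 4 rose and 2 fell by edgeR's quasi-likelihood test, where 13.5% of all genes tested rose and 14.0% fell. The median log2 fold change of the members was 0.08, against 0.00 over all genes. In shControl cells 5 members rose (BAX, BAK1, BCL2L1, BBC3 and BID) and HRK fell, where 10.6% of all genes rose and 7.53% fell, with a median of 0.40 against 0.01 over all genes. Fold changes below are log2 with their SE and the adjusted p is Benjamini-Hochberg over 17094 genes.

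BAX, the effector that moves from the cytosol to mitochondria when activated, rose in both populations, by a larger step in shControl cells. It was at 176, 190 and 193 CPM in shTRIM22 irradiated libraries and at 138, 141 and 116 CPM in shTRIM22 sham libraries. In shControl cells it was at 149, 158 and 168 CPM after radiation and at 77.8, 80.4 and 81.4 CPM after sham treatment. All irradiated libraries stood above all sham libraries of their own population. In bulk RNA, a change in the share of cells and a change in RNA per cell cannot be told apart. The rise was 1.42-fold in shTRIM22 cells (0.50 ± 0.07, edgeR adjusted p = 0.000119) and 1.98-fold in shControl cells (0.99 ± 0.07, adjusted p = 1.54e-07). The difference between these rises passed its own test, a call lost in 9 of 18 alternatives (below). Without shTRIM22 sham replicate 3 the rise in shTRIM22 cells was 0.42 (adjusted p = 3.89e-08). The 4 group means followed the order shTRIM22 irradiated, shControl irradiated, shTRIM22 sham, shControl sham, and no neighbours in it overlapped.

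BAK1, the effector that resides in the mitochondrial membrane, rose in both populations, with an interaction of -0.14 that missed the threshold (edgeR adjusted p = 0.696). It was at 22.2, 22.2 and 23.7 CPM in shTRIM22 irradiated libraries and at 16.0, 17.8 and 13.5 CPM in shTRIM22 sham libraries, 1.44-fold higher (0.52 ± 0.11, edgeR adjusted p = 0.00292, and 0.43 with adjusted p = 0.00173 without replicate 3 of shTRIM22 sham). In shControl cells it was at 23.4, 26.4 and 24.7 CPM after radiation and at 17.7, 15.6 and 13.7 CPM after sham treatment, 1.59-fold higher (0.67 ± 0.11, adjusted p = 0.000642). The irradiated libraries did not overlap the sham libraries in either population, while the groups of the same treatment overlapped between populations. The processed copies BAK1P1 and BAK1P2 held 2 to 16 and 0 to 2 counts per library. How reads that match both BAK1 and a copy were counted is not stated, so these counts do not bound such reads.

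BBC3, the gene of the BH3-only protein PUMA, rose in shControl cells and did not pass the test in shTRIM22 cells, a difference that passed its own test (below). It was at 37.1, 38.7 and 43.2 CPM in shTRIM22 irradiated libraries and at 37.0, 40.1 and 43.0 CPM in shTRIM22 sham libraries, a change of -0.01 ± 0.09 (edgeR adjusted p = 0.933). In shControl cells it was at 33.0, 31.4 and 36.0 CPM after radiation and at 20.9, 20.2 and 20.6 CPM after sham treatment, a rise of 1.63-fold (0.70 ± 0.09, adjusted p = 4.64e-05). The shTRIM22 sham libraries were thus already above all shControl libraries before any irradiation.

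PMAIP1, the gene of NOXA, fell after irradiation in shTRIM22 cells. It was at 56.7, 58.5 and 61.8 CPM in shTRIM22 irradiated libraries and at 79.4, 68.0 and 98.3 CPM in shTRIM22 sham libraries, 1.39-fold lower (-0.47 ± 0.11, edgeR adjusted p = 0.00445). The highest of these values belongs to replicate 3, and without it the change was -0.32 (adjusted p = 0.000658). In shControl cells the gene was at 37.9, 31.6 and 31.5 CPM after radiation and at 32.9, 29.7 and 31.8 CPM after sham treatment, which overlapped (0.09 ± 0.12, adjusted p = 0.631).

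HRK, the gene of a BH3-only protein best known from neurons, had the largest fold change of the 10 members in both irradiation comparisons. It was at 4.29, 4.64 and 6.88 CPM in shTRIM22 irradiated libraries and at 11.4, 11.2 and 11.0 CPM in shTRIM22 sham libraries, 2.13-fold lower (-1.09 ± 0.17, edgeR adjusted p = 0.000237, and -1.10 without replicate 3 of shTRIM22 sham). In shControl cells it was at 1.34, 1.63 and 1.95 CPM after radiation and at 5.28, 6.33 and 5.18 CPM after sham treatment, which is 3.37-fold lower (-1.75 ± 0.21, adjusted p = 2.7e-05). These low levels rest on 19 to 33 counts per library in shControl irradiated cells and on 184 to 210 in shTRIM22 sham cells, so the precision is lower than for BAX.

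BCL2L1 and BID rose after irradiation in both populations, and MCL1, BCL2L11 and BIK did not pass the test in either. BCL2L1, the gene of BCL-XL, was at 170, 176 and 172 CPM in shTRIM22 irradiated and 149, 151 and 124 CPM in shTRIM22 sham libraries (0.29 ± 0.07, edgeR adjusted p = 0.00591, and 0.20 without replicate 3). In shControl cells it was at 208, 222 and 208 CPM after radiation and 162, 165 and 153 CPM after sham treatment (0.41 ± 0.07, adjusted p = 0.000606). BID, whose protein is cut by caspase 8 to link death receptors to mitochondria, was at 32.1, 32.5 and 34.0 CPM in shTRIM22 irradiated and 27.6, 27.0 and 24.3 CPM in shTRIM22 sham libraries (0.32 ± 0.08, adjusted p = 0.00587, and 0.27 without replicate 3). An anti-apoptotic and a pro-apoptotic gene thus rose in the same libraries. In shControl cells BID was at 42.5, 42.0 and 41.9 CPM after radiation and 29.1, 27.7 and 30.0 CPM after sham treatment (0.54 ± 0.08, adjusted p = 0.000123). MCL1 changed by -0.11 ± 0.07 in shTRIM22 cells (adjusted p = 0.269) and was within 0.01 on the log2 scale of its sham level in shControl cells (SE 0.07, adjusted p = 0.982). BCL2L11 changed by 0.04 ± 0.12 and 0.01 ± 0.11, and BIK by 0.11 ± 0.22 and 0.38 ± 0.27, in shTRIM22 and shControl cells, none past the threshold.

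**Figure D2:**
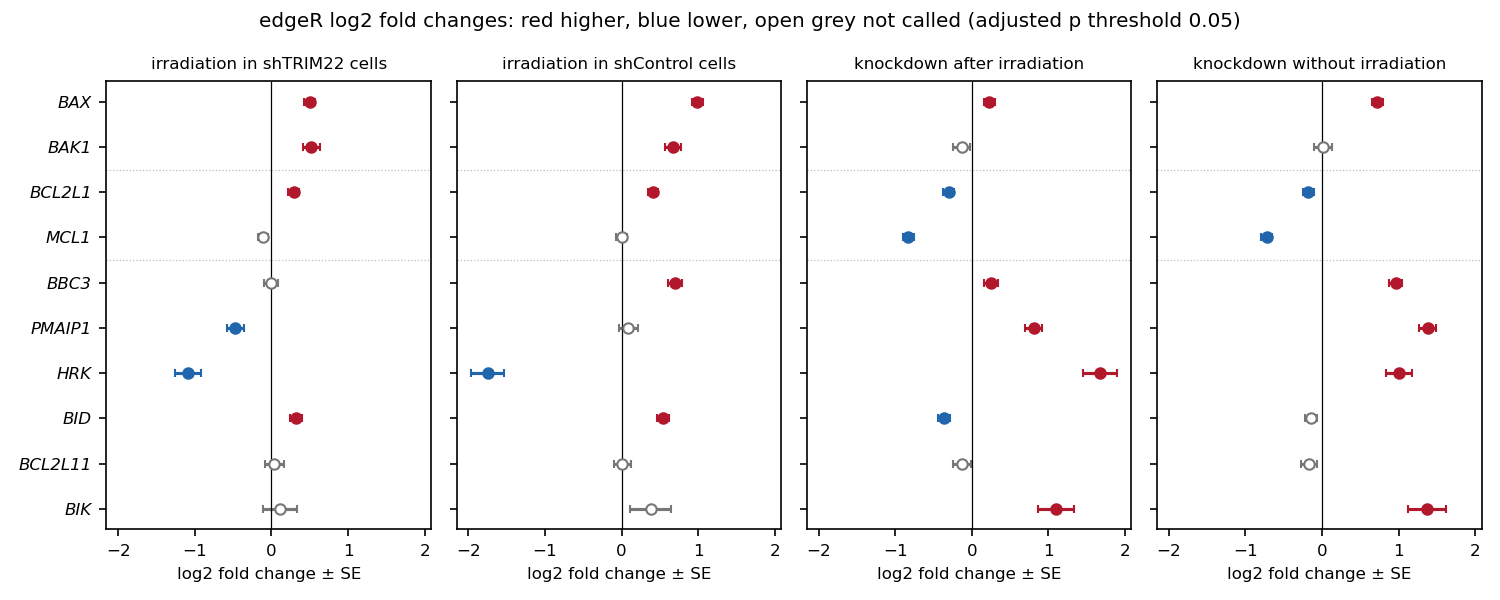
edgeR log2 fold change ± SE of each member in the 4 comparisons, with effectors, anti-apoptotic and BH3-only genes separated by dotted lines; filled red is higher, filled blue lower and open grey not past an adjusted p of 0.05. HRK lies far to the left in both irradiation panels and to the right in both knockdown panels, and MCL1 lies to the left in both knockdown panels only.

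Knockdown moved most members in both treatments: BAX, BBC3, PMAIP1, HRK and BIK were higher in shTRIM22 cells and MCL1 and BCL2L1 were lower. After irradiation 5 of 10 members were higher and 3 lower by edgeR, where 17.6% of all genes tested were higher and 18.0% lower, and the third lower member was BID. Without irradiation 5 were higher and 2 lower, where 25.4% of all genes were higher and 22.1% lower. The median log2 fold change of the members was 0.05 after irradiation (all genes 0.00) and 0.36 without it (all genes 0.02).

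MCL1 was the most abundant member by CPM and fell with knockdown. It was at 215, 212 and 209 CPM in shTRIM22 irradiated libraries and at 373, 384 and 371 CPM in shControl irradiated libraries, 1.77-fold lower (-0.83 ± 0.07, edgeR adjusted p = 1.91e-07). Without radiation it was at 220, 205 and 262 CPM in shTRIM22 and at 381, 373 and 376 CPM in shControl libraries, 1.65-fold lower (-0.72 ± 0.07, adjusted p = 5.66e-07). Every shTRIM22 library stood below every shControl library. The highest shTRIM22 value is replicate 3 of the sham group, and without it the change was -0.82 (adjusted p = 2.03e-19).

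PMAIP1, whose product binds MCL1, was higher in the same libraries. It was at 56.7 to 61.8 CPM in shTRIM22 irradiated and 31.5 to 37.9 CPM in shControl irradiated libraries, 1.76-fold higher (0.81 ± 0.11, edgeR adjusted p = 3.67e-05). Without radiation the ranges were 68.0 to 98.3 CPM in shTRIM22 and 29.7 to 32.9 CPM in shControl libraries, 2.60-fold higher (1.38 ± 0.11, adjusted p = 6.23e-08, and 1.23 without replicate 3 of shTRIM22 sham). Per length, the ratio of PMAIP1 to MCL1 mRNA was 0.517, 0.540 and 0.579 in shTRIM22 irradiated libraries, 0.705, 0.651 and 0.733 in shTRIM22 sham, 0.199, 0.161 and 0.166 in shControl irradiated and 0.169, 0.155 and 0.166 in shControl sham libraries. All shTRIM22 libraries were thus above all shControl libraries, with a highest shControl value of 0.199 and a lowest shTRIM22 value of 0.517.

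The effector to guardian ratio followed a different order. BAX per BCL2L1 by CPM per kb was 1.33, 1.39 and 1.43 in shTRIM22 irradiated libraries, 1.19, 1.19 and 1.20 in shTRIM22 sham, 0.918, 0.913 and 1.03 in shControl irradiated and 0.616, 0.623 and 0.681 in shControl sham libraries. It was higher after radiation in both populations and higher in shTRIM22 cells under both treatments, with no overlap between any of the groups. In replicate 3 of shTRIM22 sham, where both genes were low, the ratio was 1.20 and within 0.01 of the rest of its group. BAX per BAK1 was 7.02 ± 0.296 in shTRIM22 irradiated, 7.16 ± 0.351 in shTRIM22 sham, 5.46 ± 0.337 in shControl irradiated and 4.41 ± 0.652 in shControl sham libraries (mean ± SD, n = 3). Gene lengths are those of the deposited table, so the ratios between genes depend on its gene models, while the comparison of 1 ratio between groups does not.

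**Figure D3:**
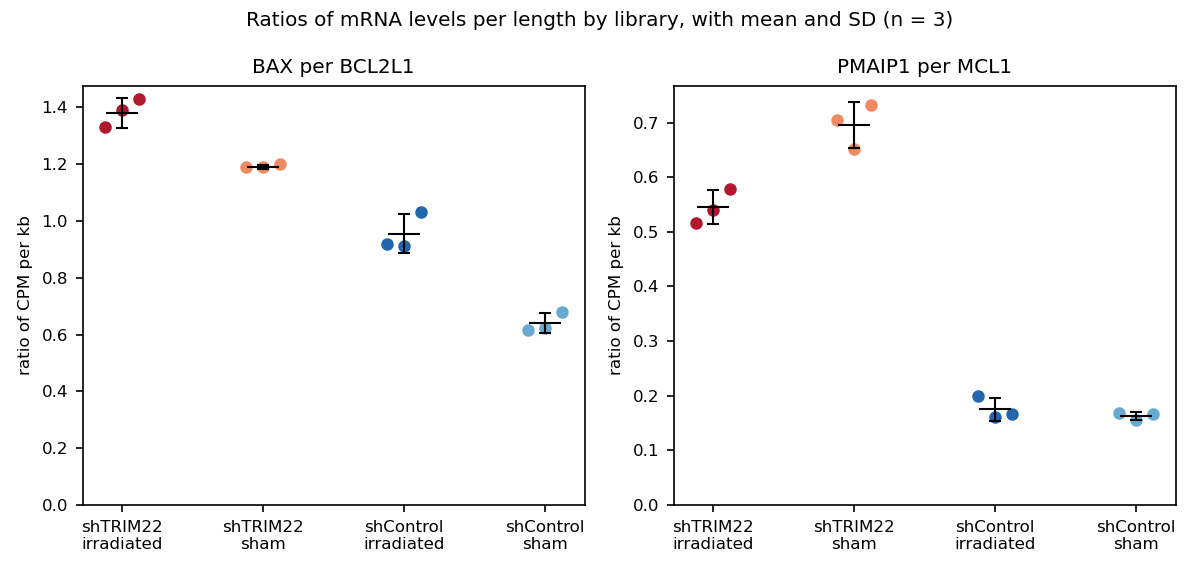
Ratio of CPM per kilobase of BAX to BCL2L1 (left) and of PMAIP1 to MCL1 (right) in each library, with the mean and SD of each group (n = 3), on linear axes from 0. The left ratio separates all 4 groups, from 0.616 to 1.43, and the right ratio separates shTRIM22 libraries (0.517 to 0.733) from shControl libraries (0.155 to 0.199).

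Among the other BH3-only genes BBC3, HRK and BIK were higher with knockdown and BID was lower after irradiation. BBC3 was 1.19-fold higher after irradiation (0.25 ± 0.09, edgeR adjusted p = 0.0374) and 1.95-fold higher without it (0.96 ± 0.09, adjusted p = 2.2e-07, and 0.91 without replicate 3 of shTRIM22 sham). The call after irradiation was lost in 7 of 19 alternatives, with adjusted p up to 0.152: with no low-count filter, and without replicate 1 or 2 of shControl sham, replicate 1 or 2 of shControl irradiated, or replicate 2 or 3 of shTRIM22 irradiated. HRK was 3.17-fold higher after irradiation (1.67 ± 0.22, adjusted p = 1.47e-05) and 2.00-fold higher without it (1.00 ± 0.17, adjusted p = 0.000142, and 1.02 without replicate 3 of shTRIM22 sham). Its mean in shTRIM22 irradiated libraries, 5.27 ± 1.41 CPM, lay within the spread of shControl sham libraries at 5.60 ± 0.638 CPM. BIK, a BH3-only protein of the endoplasmic reticulum, was at 2.79, 3.37 and 3.15 CPM in shTRIM22 irradiated and 1.34, 1.82 and 1.18 CPM in shControl irradiated libraries (1.10 ± 0.24, adjusted p = 0.0019). Without radiation BIK was at 2.94, 2.43 and 3.28 CPM in shTRIM22 and 1.32, 1.07 and 0.957 CPM in shControl libraries (1.37 ± 0.25, adjusted p = 0.000254, and 1.27 without replicate 3), which rests on 17 to 56 counts per library. All shTRIM22 libraries were above all shControl libraries for BIK.

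BID and BCL2L1 went the other way after irradiation. BID was at 32.1 to 34.0 CPM in shTRIM22 irradiated and 41.9 to 42.5 CPM in shControl irradiated libraries (-0.36 ± 0.08, edgeR adjusted p = 0.00154), and without radiation its change was -0.14 ± 0.08 (adjusted p = 0.158). BCL2L1 was at 170 to 176 CPM in shTRIM22 irradiated and 208 to 222 CPM in shControl irradiated libraries (-0.30 ± 0.07, adjusted p = 0.00291). Without radiation the BCL2L1 change was -0.18 ± 0.07 (adjusted p = 0.0446), a call lost in 9 of 19 alternatives (the compared groups alone, and without replicate 1 or 2 of shControl sham, any replicate of shControl irradiated, replicate 1 or 2 of shTRIM22 irradiated, or replicate 3 of shTRIM22 sham), which stood at -0.09 (adjusted p = 0.133) without replicate 3 of shTRIM22 sham. The antisense gene ABALON overlaps BCL2L1 with 26 to 100 counts per library, and strand use in counting is not given in the sources used here. BAX was 1.18-fold higher after irradiation (0.23 ± 0.07, adjusted p = 0.0192, lost without replicate 1 or 2 of shControl irradiated or replicate 2 or 3 of shTRIM22 irradiated, with adjusted p up to 0.102) and 1.65-fold higher without it (0.72 ± 0.07, adjusted p = 7.77e-07, and 0.80 without replicate 3). BAK1 changed by -0.13 ± 0.11 after irradiation (adjusted p = 0.396) and by 0.01 ± 0.12 without it (adjusted p = 0.947). BCL2L11, the gene of BIM, changed by -0.13 ± 0.12 and -0.17 ± 0.11 (adjusted p = 0.421 and 0.243), and it is overlapped on the opposite strand by MIR4435-2HG with 113 to 193 counts per library.

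The interaction is the log2 irradiation effect in shTRIM22 cells minus that in shControl cells. By edgeR 2 of 10 members passed the test, BBC3 and BAX, both with a smaller effect in shTRIM22 cells, where 1.09% of all genes tested passed with a negative interaction and 0.521% with a positive one. For BBC3 the interaction was -0.71 ± 0.12 (adjusted p = 0.00714, and -0.66 with adjusted p = 0.000113 without replicate 3 of shTRIM22 sham), and it stayed past the threshold in all 18 alternatives. For BAX it was -0.49 ± 0.10 (adjusted p = 0.0272). This call did not survive in 9 of 18 alternatives, each with 1 library left out (all but replicate 1 of shControl irradiated and replicates 2 and 3 of shTRIM22 sham), where the adjusted p reached 0.0969. Without replicate 3 of shTRIM22 sham the BAX interaction was -0.57 (adjusted p = 3.73e-07). PMAIP1 had an interaction of -0.57 ± 0.16 that missed the threshold (adjusted p = 0.087) and passed it without replicate 3 (-0.42, adjusted p = 0.0108) and in 3 other alternatives, DESeq2 among them. For HRK the interaction was 0.66 ± 0.28 (adjusted p = 0.235) and for BID -0.22 ± 0.11 (adjusted p = 0.321). At an unadjusted p under 0.05, 3 members had a negative and 1 a positive interaction.

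**Figure D4:**
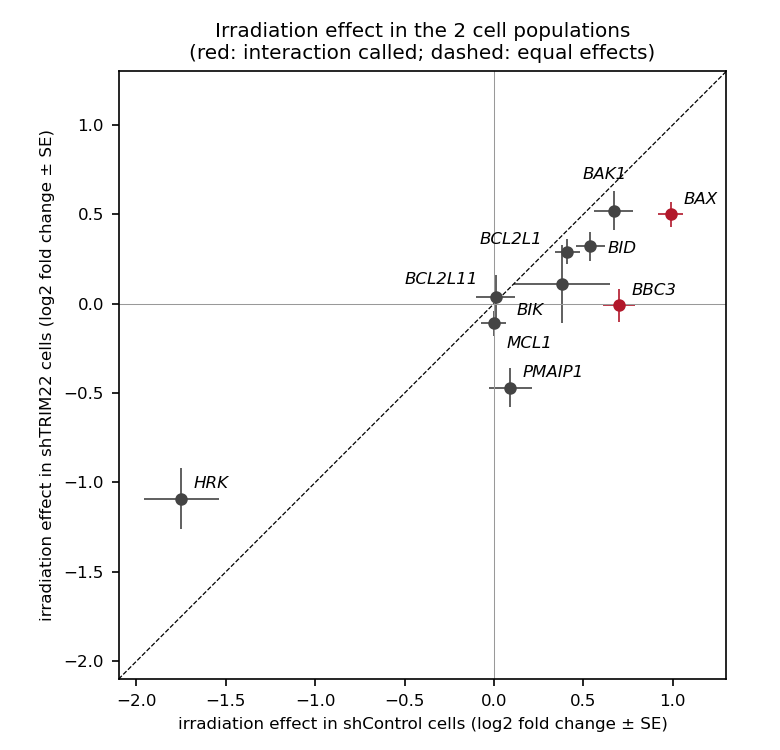
Irradiation effect of each member in shTRIM22 cells (y axis) against shControl cells (x axis), both as edgeR log2 fold change ± SE, with red for members whose interaction passed an adjusted p of 0.05 and a dashed line at equal effects. BAX and BBC3 lie below the line, at 0.50 and -0.01 in shTRIM22 cells for 0.99 and 0.70 in shControl cells, and HRK lies at the lower left.

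Across the 12 libraries some members kept close company. BCL2L1 and BID had a Pearson r of 0.958 in log2 CPM, PMAIP1 and BIK 0.895 and BAX and BBC3 0.848, whereas HRK and BID had -0.933 and MCL1 and BIK -0.894. These values carry the differences between the 4 groups and describe likeness only. By the same measure the protein-coding genes most like BBC3 were AEN (0.984), GDF15 (0.979) and NOC4L (0.973). Those most like BAX were SULF2 (0.981), PI4K2A (0.979) and TM7SF3 (0.978), and those most like HRK were FAM129A (0.981), GINS2 (0.978), a subunit of a replication complex, and EIF4EBP1 (0.977). For MCL1 they were P4HA3 (0.995), SFXN4 (0.993) and SEMA6B (0.993), and for PMAIP1 they were PRPSAP2 (0.991), WDR41 (0.990) and FEZ2 (0.989). BID was most like TANC1 (0.989), PALLD (0.977) and SNX6 (0.977), BCL2L1 like C6orf89 (0.972), EPHB2 (0.972) and RNF145 (0.971), BAK1 like TGFBR2 (0.973), CAT (0.972) and LYNX1 (0.971), and BIK like SNX8 (0.983), CHST2 (0.976) and EMC10 (0.976). BCL2L11, which did not pass the test in any comparison, had lower values, with UBE2J1 at 0.905, OSGEPL1 at 0.834 and FRMPD3 at 0.826.

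Further genes of the BCL2 family passed the test in both directions. Of 15 further family genes 13 were tested. In shTRIM22 cells irradiation raised 2 and lowered 4 of them (median -0.14), where 13.5% of all genes rose and 14.0% fell. Irradiation of shControl cells raised 2 and lowered 3 (median 0.05), where 10.6% of all genes rose and 7.53% fell. BCL2L15, a little-studied family gene, rose in both populations (1.10 ± 0.19 in shTRIM22 cells, edgeR adjusted p = 0.000557, and 1.19 ± 0.19 in shControl cells, adjusted p = 0.000397). BCL2, the founding anti-apoptotic gene, was a minor transcript at 3.40 ± 0.387 CPM in shTRIM22 irradiated, 5.30 ± 0.686 in shTRIM22 sham, 2.02 ± 0.541 in shControl irradiated and 3.86 ± 0.224 in shControl sham libraries (mean ± SD, n = 3), and fell with irradiation in both (-0.64 ± 0.19, edgeR adjusted p = 0.0213, in shTRIM22 cells and -0.94 ± 0.21, adjusted p = 0.00565, in shControl cells). BCL2L2, the gene of the anti-apoptotic BCL-W, fell with irradiation in both (-0.34 ± 0.07, adjusted p = 0.00219, and -0.28 ± 0.07, adjusted p = 0.0127), as did BCL2L12 (-0.73 ± 0.16 and -0.68 ± 0.17). BCL2A1 rose in both (0.86 ± 0.23, adjusted p = 0.011, and 0.75 ± 0.23, adjusted p = 0.0326). With knockdown 4 were higher and 3 lower after irradiation (median 0.06, all genes 17.6% and 18.0%) and 5 higher and 2 lower without it (median 0.28, all genes 25.4% and 22.1%). BMF, a further BH3-only gene, was higher under both treatments (0.96 ± 0.17, adjusted p = 0.000286, and 0.66 ± 0.16, adjusted p = 0.00355), as were BCL2L2 (0.36 ± 0.07 and 0.42 ± 0.07) and BCL2L13 (0.33 ± 0.08 and 0.37 ± 0.08). The BH3-only gene BAD was lower under both (-0.83 ± 0.15, adjusted p = 0.000391, after irradiation and -0.45 ± 0.15, adjusted p = 0.0195, without it), as was the mitophagy receptor gene BNIP3L (-0.21 ± 0.06, adjusted p = 0.0154, and -0.36 ± 0.06, adjusted p = 0.000142). BCL2L2, BAD and BCL2L12 overlap other expressed genes in the annotation, so their counts can hold reads of a neighbour. For the interaction 0 of the 13 passed by edgeR and 0 by DESeq2, with 1 at an unadjusted p under 0.05. Without replicate 3 of shTRIM22 sham BCL2L12 changed by -0.47 with irradiation in shTRIM22 cells, BAD by -0.69 with knockdown without irradiation, and 0 of the named calls was lost.

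Past the mitochondrial step, the mRNA of cytochrome c was lower with knockdown. Of 16 genes of that step, all tested, irradiation raised 1 and lowered 1 in shTRIM22 cells (13.5% and 14.0% of all genes) and raised 2 and lowered 4 in shControl cells (10.6% and 7.53% of all genes). With knockdown 4 were higher and 4 lower after irradiation (17.6% and 18.0% of all genes) and 4 higher and 4 lower without it (25.4% and 22.1% of all genes). CYCS, the gene of cytochrome c, was at 97.4 ± 3.67 CPM in shTRIM22 irradiated and 215 ± 2.52 CPM in shControl irradiated libraries (-1.14 ± 0.06, edgeR adjusted p = 5.19e-10). Without radiation it was at 105 ± 5.58 CPM in shTRIM22 and 218 ± 7.98 CPM in shControl libraries (-1.06 ± 0.06, adjusted p = 6.73e-10). The channel gene VDAC1 was lower (-0.48 ± 0.06, adjusted p = 1.06e-05, and -0.68 ± 0.06, adjusted p = 1.32e-07). AIFM1, the gene of apoptosis-inducing factor, was lower under both (-0.47 ± 0.08, adjusted p = 0.000118, after irradiation and -0.30 ± 0.08, adjusted p = 0.00354, without it), and APAF1, the apoptosome scaffold, was higher under both (0.33 ± 0.09, adjusted p = 0.00998, and 0.48 ± 0.09, adjusted p = 0.00037). With irradiation BIRC5, the gene of survivin and a mitotic gene too, fell in shTRIM22 cells (-1.62 ± 0.22, adjusted p = 0.000188) and in shControl cells (-0.83 ± 0.22, adjusted p = 0.0209). VDAC1 rose in shTRIM22 cells (0.33 ± 0.06, adjusted p = 0.000827) and was at 0.13 ± 0.06 in shControl cells (adjusted p = 0.161). CASP9 was at -0.25 ± 0.14 in shTRIM22 cells, not past the threshold, and fell in shControl cells (-0.59 ± 0.14). BIRC2 was at -0.06 ± 0.07 in shTRIM22 cells, not past it either, and fell in shControl cells (-0.28 ± 0.07). BIRC3 was at 0.21 ± 0.08 in shTRIM22 cells (adjusted p = 0.0596) and rose in shControl cells (0.29 ± 0.08, adjusted p = 0.0181). For the interaction 0 of the 16 passed by edgeR and 0 by DESeq2, with 3 at an unadjusted p under 0.05. Without replicate 3 of shTRIM22 sham 0 of the named calls was lost, and irradiation in shControl cells raised 5 and lowered 4. In that fit 1 gene, CASP9, passed the interaction (0.53, edgeR adjusted p = 0.0069). Calls over all genes grew too, to 5260 for irradiation in shControl cells (3107 with all libraries) and 1185 for the interaction (276).

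Among regulators of the family proteins the counts called lay on both sides of those over all genes. Of 18 regulators, irradiation raised 2 and lowered 3 in shTRIM22 cells (13.5% and 14.0% of all genes). Irradiation of shControl cells raised 3, BAG3, BECN1 and HSPA1B, and edgeR called 0 lower (1 at an unadjusted p under 0.05 and 1 by DESeq2), where 10.6% of all genes rose and 7.53% fell. With knockdown 1 was higher and 6 lower after irradiation (17.6% and 18.0% of all genes) and 3 higher and 7 lower without it (25.4% and 22.1% of all genes). DYNLL2, the dynein light chain that holds BMF, was at 36.6 ± 1.77 CPM in shTRIM22 irradiated and 89.3 ± 6.10 CPM in shControl irradiated libraries (-1.29 ± 0.08, edgeR adjusted p = 3.73e-09), and at 51.5 ± 2.63 CPM in shTRIM22 sham and 94.1 ± 7.71 CPM in shControl sham libraries (-0.87 ± 0.08, adjusted p = 1.27e-07). FBXW7, a ubiquitin ligase gene for MCL1, was lower under both treatments (-0.48 ± 0.13, adjusted p = 0.00772, after irradiation and -0.47 ± 0.13, adjusted p = 0.0068, without it), as was USP9X, whose product removes ubiquitin from MCL1 (-0.21 ± 0.05 and -0.24 ± 0.05). CUL5 was higher under both (0.30 ± 0.09 and 0.41 ± 0.09), and BAG3 (-0.24 ± 0.09 and -0.52 ± 0.09) and CASP8 (-0.26 ± 0.08 and -0.39 ± 0.08) were lower under both. HSPA1B was at 0.11 ± 0.13 after irradiation (adjusted p = 0.573) and higher without it (0.97 ± 0.13, adjusted p = 2.11e-05), and its interaction passed the test (-0.86 ± 0.19, adjusted p = 0.0329). For the interaction edgeR called 0 of the 18 regulators higher and 1 lower, and DESeq2 called 0 higher and 3 lower. BAG3 rose with irradiation in both populations (0.64 ± 0.09 in shTRIM22 cells, adjusted p = 0.000111, and 0.36 ± 0.09 in shControl cells, adjusted p = 0.0102). Without replicate 3 of shTRIM22 sham irradiation raised 5 and lowered 4 in shTRIM22 cells and raised 7 and lowered 1 in shControl cells. Knockdown after irradiation then gave 3 higher and 6 lower, and the interaction of HSPA1B was -0.67. The call of HSPA1A as lower with irradiation in shTRIM22 cells (-0.52 with all libraries) was lost (-0.41, edgeR adjusted p = 0.122). The interaction of DYNLL2 passed in that fit (-0.38, edgeR adjusted p = 0.00856). Calls over all genes grew too in that fit, to 5389 for irradiation in shTRIM22 cells (4702 with all libraries). They were 5260 for irradiation in shControl cells (3107) and 7943 for knockdown after irradiation (6092).

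Of 17 genes of transcription factors known to act on the family 16 were tested. With irradiation 3 rose and 6 fell in shTRIM22 cells (13.5% and 14.0% of all genes) and 2 rose and 5 fell in shControl cells (10.6% and 7.53% of all genes). With knockdown 2 were higher and 4 lower after irradiation (17.6% and 18.0% of all genes) and 6 higher and 5 lower without it (25.4% and 22.1% of all genes). JUN, a subunit of the factor AP-1, was lower with knockdown (edgeR -1.16 ± 0.07, adjusted p = 3.8e-09, after irradiation and -0.72 ± 0.07, adjusted p = 3.99e-07, without it), while KLF6 was higher (0.58 ± 0.07, adjusted p = 3.65e-06, and 0.61 ± 0.06, adjusted p = 1.11e-06). E2F1 fell with irradiation in both populations (-1.08 ± 0.14, adjusted p = 2.94e-05, in shTRIM22 cells and -0.56 ± 0.14, adjusted p = 0.0111, in shControl cells), as did ATF4 (-0.51 ± 0.10 and -0.41 ± 0.10) and MYC (-0.36 ± 0.09 and -0.44 ± 0.09), while STAT3 rose in both (0.17 ± 0.06, adjusted p = 0.0395, and 0.44 ± 0.06, adjusted p = 6.9e-05). HIF1A rose in shTRIM22 cells (0.64 ± 0.12, adjusted p = 0.00147) and was at 0.21 ± 0.12 in shControl cells (adjusted p = 0.259). MITF was at 0.20 ± 0.10 in shTRIM22 cells (adjusted p = 0.135) and rose in shControl cells (0.56 ± 0.10, adjusted p = 0.000842). JUN fell with irradiation in shTRIM22 cells (-0.43 ± 0.07, adjusted p = 0.000329), did not pass the test in shControl cells (adjusted p = 0.991) and passed the test of the interaction. Without replicate 3 of shTRIM22 sham knockdown after irradiation gave 6 higher and 7 lower, and 2 genes passed a positive and 4 a negative interaction. Calls over all genes grew too in that fit, to 7943 for knockdown after irradiation (6092 with all libraries) and 1185 for the interaction (276).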

How the data were processed

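The authors deposited raw read counts per gene, not normalized, for 58735 genes in 12 libraries. Per the submitters' processing notes the genome build was hg38 and DESeq2 1.20.0 was used, without a stated role. No source used here gives the aligner, the counting tool or strandedness. Sample descriptions name the columns, and 0 per-sample columns were left unmapped.

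The deposited counts were fitted with edgeR 4.0.16 in R 4.3.3: filterByExpr on group with a minimum count of 10, TMM scaling, 1 mean per group over all 12 libraries, robust quasi-likelihood F-tests, Benjamini-Hochberg adjustment over 17094 genes and a threshold of 0.05. The SE is the fold change over the root of its F statistic. CPM per kb divides by the deposited gene length. The steps were tested on simulated data with 200 changed genes. Total counts ran from 14468386 to 17872154.

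The members and all gene lists were chosen with earlier results of these data known. Named genes are all 10 members, TRIM22, up to 4 called genes of smallest p per list and comparison, and the 3 protein-coding genes most like each member over the 12 libraries.

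The labels number replicates 1 to 3 in every group without saying what a number shares. Over 11370 genes with a mean of at least 5 CPM, same-numbered libraries deviated together between shTRIM22 sham and shControl sham (correlations of 0.159, 0.136 and 0.248), and in the other comparisons at least 1 pair was below 0.1. Alternatives were DESeq2 1.42.0, limma 3.58.1 voom, other scaling and filters, a replicate block, the compared groups alone, removal of mitochondrially encoded genes, and each library left out. Promoters are RefSeq windows. Some genes of the lists are counted but not reported by name here.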

Additional observations from a re-analysis of the deposited data

Results flagged for a closer look

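By the edgeR interaction test irradiation acted unequally in shTRIM22 and shControl cells for 2 members and 2 genes reported here of the lists around them. For BBC3 the log2 effect in shTRIM22 cells minus that in shControl cells was -0.71 ± 0.12 SE (adjusted p = 0.00714). For BAX it was -0.49 ± 0.10 (adjusted p = 0.0272), a call lost in 9 of 18 alternatives. JUN gave -0.44 ± 0.10 (adjusted p = 0.0388), with 78.2 ± 2.79 CPM in shTRIM22 irradiated, 106 ± 2.96 in shTRIM22 sham, 175 ± 12.2 in shControl irradiated and 174 ± 14.8 in shControl sham libraries (mean ± SD, n = 3). The heat shock gene HSPA1B gave -0.86 ± 0.19 (adjusted p = 0.0329), with 26.7 ± 1.95, 36.2 ± 7.76, 24.7 ± 3.26 and 18.6 ± 1.36 CPM in the same order of groups, and it shares nearly all its sequence with HSPA1A, so its counts are uncertain. Lost calls were counted over the full set of alternatives for members only, so the calls on JUN and HSPA1B cannot be taken as firmer than that on BAX. Between libraries of a group, pairs with shTRIM22 sham replicate 3 differed by 65.4 and 95.2 chi-square per degree of freedom, against 2.58 to 8.06 in the other pairs.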

How the results depend on the processing

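Of 29 calls on members, 25 kept their direction and passed the threshold under every alternative run, 4 were lost under some and 0 reversed. Those 4 are the interaction of BAX, knockdown after irradiation for BAX and BBC3, and knockdown without irradiation for BCL2L1. Of 21 comparisons that missed the threshold, 2 passed it under some alternative (the interaction of PMAIP1, and irradiation of shTRIM22 cells for MCL1). The interaction counts moved most: 276 genes were called, against 754 with no low-count filter and 578 by DESeq2, with 2 members called, against 3 under each. With 1 library left out, 111 to 1185 genes and 1 to 3 members were called for the interaction. For irradiation in shControl cells 2135 to 5260 genes were called (3107 with all). The highest gene count of each, 1185 and 5260, came without shTRIM22 sham replicate 3. Fitting the compared groups alone gave 5224 genes for irradiation in shControl cells and 2912 in shTRIM22 cells (4702 with all). The cause was not tested. Values near 0 changed sign: BCL2L11 after irradiation of shControl cells was -0.0135 with no low-count filter, -0.0112 with the compared groups alone and -0.0113 without mitochondrially encoded genes. BBC3 after irradiation of shTRIM22 cells was 0.0026 without mitochondrially encoded genes. BAK1 with knockdown without irradiation was -0.0044, -0.0026 and -0.0089 under the same 3 settings as BCL2L11. With 1 library left out, irradiation gave -0.068 to 0.041 for BBC3 and -0.0265 to 0.1511 for BCL2L11 in shTRIM22 cells, and -0.0332 to 0.0842 for BCL2L11 and -0.0187 to 0.0055 for MCL1 in shControl cells, BAK1 with knockdown without irradiation gave -0.082 to 0.1116, and the interaction of BCL2L11 gave -0.0407 to 0.1458. A replicate block changed no call on a member, and gave 8110 genes for knockdown without irradiation (8116 without the block) and 229 for the interaction. HRK and BIK rest on as few as 19 and 17 counts in a library, which limits their precision.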
